A study of Mus musculus with 16 samples.

Results

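The 10 genes described here are those of the urea cycle and of glutamine metabolism that were named for this work by function: Cps1, Otc, Ass1, Asl, Arg1, Nags and Slc25a15 for the urea cycle (7 genes) and Glul, Gls2 and Oat for glutamine and ornithine (3 genes). These 10 were chosen with earlier results of these data known. The gene table held 24082 Ensembl genes, of which 12537 passed the filter on low values, and all 10 were among them. They were measured by RNA sequencing of total RNA from whole liver in 16 female C57Bl6/J mice, with 4 mice in each of 4 groups. Pair vehicle mice received the control liquid diet, matched in amount to the ethanol diet, with no drug. Pair IMC mice received that diet with iodomethylcholine (IMC), a small molecule that blocks the bacterial gut enzyme by which choline is turned into trimethylamine, at 0.06% wt/wt. EtOH vehicle mice received the Chronic Ethanol diet, in which ethanol rose to 6% vol/vol over 25 days, and EtOH IMC mice received ethanol and IMC together. Mice were 9 to 11 weeks old, the labels name no genetic modification, and as the study describes it mice given both ethanol and IMC had lower food intake and body weight, so that ethanol combined with IMC and lower intake cannot be told apart. It also marks a difference in body weight between pair-fed mice with and without IMC, which cannot be told apart from IMC either. Throughout, livers are given in the order of their library numbers: 10, 12, 14 and 16 for Pair vehicle, 2, 4, 6 and 8 for Pair IMC, 1, 3, 5 and 7 for EtOH vehicle, and 9, 11, 13 and 15 for EtOH IMC.

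The liver disposes of ammonia in different zones of the lobule. Hepatocytes around the portal tract run the urea cycle, in which ammonia enters as carbamoyl phosphate inside mitochondria and leaves in the cytosol as urea, and they also hold the liver glutaminase that feeds nitrogen into the cycle. A thin layer of hepatocytes around the central vein takes up the ammonia that escapes and binds it in glutamine through glutamine synthetase, and ornithine aminotransferase is enriched in that same layer. Protein intake, glucagon and glucocorticoids are known to set the level of the urea cycle enzymes.

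With IMC, 2 of these genes were called lower (adjusted p under 0.05) on both diets. They were Otc, which joins carbamoyl phosphate to ornithine to form citrulline, and Oat, which turns ornithine into glutamate semialdehyde. The share of all tested genes called lower on both diets was not computed, so this count has no baseline of its own. Diet by diet, IMC changed 3 of the 10 genes on the control diet, beside 9.48% of all tested genes. With ethanol it changed 2 of the 10, beside 21.5%. Averaged over the diets it changed 2 of the 10, beside 28.1%. On the control diet the calls for Otc and Oat were each lost in some fits with 1 library left out, and for Oat the groups overlapped. The 250 bases before the start of transcription of Otc and Oat are shown because both were called lower. Those of Glul are shown because its fitted change with IMC was above 0 in pair-fed and below 0 in ethanol-fed mice. In limma neither change was called (adjusted p = 0.170 and 0.117), nor was their difference (0.132). The sequences are from a set of RefSeq promoters (GRCm38.p6) that covered 6 of the 10 genes. They are printed on the strand of the gene, and capitals mark the letters of a motif found on either strand.
Otc, chrX:10252055-10252304, plus strand: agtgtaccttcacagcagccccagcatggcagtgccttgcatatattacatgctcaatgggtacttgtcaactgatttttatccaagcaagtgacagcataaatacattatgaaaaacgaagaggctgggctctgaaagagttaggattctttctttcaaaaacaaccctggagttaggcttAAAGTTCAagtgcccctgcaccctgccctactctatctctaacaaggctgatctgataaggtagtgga
Oat, chr7:132576399-132576648, minus strand: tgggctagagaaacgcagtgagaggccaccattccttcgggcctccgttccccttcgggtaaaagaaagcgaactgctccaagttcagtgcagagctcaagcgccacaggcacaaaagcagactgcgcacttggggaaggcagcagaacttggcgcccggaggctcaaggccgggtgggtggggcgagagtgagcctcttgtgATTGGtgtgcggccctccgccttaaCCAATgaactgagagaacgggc
Glul, chr1:153899679-153899928, plus strand: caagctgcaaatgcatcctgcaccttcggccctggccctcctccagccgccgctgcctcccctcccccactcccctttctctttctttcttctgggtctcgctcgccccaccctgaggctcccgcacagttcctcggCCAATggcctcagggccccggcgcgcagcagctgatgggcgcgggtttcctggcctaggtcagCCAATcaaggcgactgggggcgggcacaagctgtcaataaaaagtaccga
The motifs searched were TATAAA (found in 12.4% of the 32851 RefSeq promoters of this length), CCAAT (33.8%), TTGCNNAA of the C/EBP type (9.56%), TGACG of the cAMP response element (17.8%), AGAACA of the glucocorticoid receptor (16.1%) and AAAGTCCA of the HNF4 type (1.01%). The variant AAAGTTCA (1.02% of promoters) was added after the Otc sequence had been read. The Otc promoter held AAAGTTCA once, beginning 68 bases before the start, and none of the other 6 motifs. Oat and Glul each held CCAAT 2 times, in Oat beginning 47 bases before the start as ATTGG on the printed strand and 22 bases before it, and in Glul beginning 113 and 50 bases before it. No motif was found in both the Otc and the Oat window, and the matches did not overlap each other. These matches describe letters in the windows and were not tested as binding sites.

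Between 9632659 and 12601199 reads per library fell on genes. Each library was nearest, over all tested genes, to another library of its own group. Libraries 1 to 8 hold Pair IMC and EtOH vehicle and libraries 9 to 16 hold Pair vehicle and EtOH IMC, so that each comparison of 2 groups, and the difference of the IMC effect between diets, cannot be told apart from low against high library numbers. The mean of the 2 IMC effects is balanced over them. Hepatocyte markers dominated every library, and albumin alone took between 6.7% and 13% of reads. Of the kidney tubule markers, none of 4 passed the filter, and their summed level was at most 16. The summed level of 3 erythroid genes was 48.2 to 124 in EtOH IMC and between 120 and 354 in the other groups, and its part in the results below was not tested. Other marker lists that stood apart between compared groups are given beside those comparisons. In bulk tissue, fewer cells of a type and less RNA per cell cannot be told apart.

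Levels are given as rescaled reads, meaning reads on a gene after all 16 libraries were brought to a common scale. Between genes they are given only per kilobase of exon. Exon length was the union of all annotated exons of a gene, and other lengths were not tried. Per kilobase, as the mean over the 16 livers, Ass1 stood highest at 14096 and Cps1 next at 11844, followed by Arg1 at 8517, Oat at 4413 and Glul at 4051. Gls2 (1541), Asl (1501), Otc (1383) and Slc25a15 (944) lay lower, and Nags, which makes the N-acetylglutamate that activates Cps1, lowest at 255. Between these extremes the range was wide, with the enzyme that makes the activator far below the enzyme it activates. The 10 genes together took 1.13% to 1.92% of all reads on genes, with means of 1.52% ± 0.265 in Pair vehicle, 1.27% ± 0.200 in Pair IMC, 1.74% ± 0.160 in EtOH vehicle and 1.48% ± 0.173 in EtOH IMC (SD, n = 4).

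**Figure D1:**
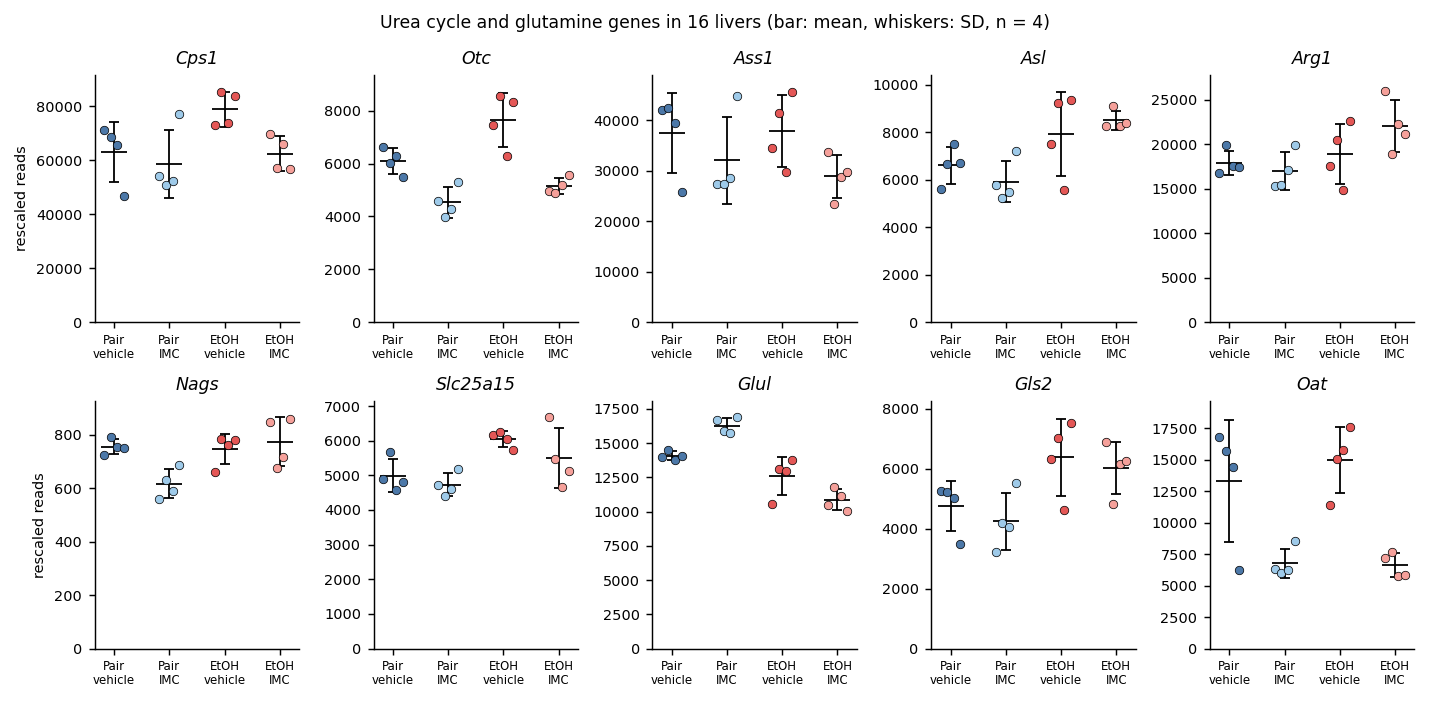
Level of each of the 10 genes in each liver, as rescaled reads (linear axes that start at 0), by group, with points for single livers in the order of library numbers, a bar for the mean and whiskers for the SD (n = 4). Otc and Oat are lower with IMC on both diets, Glul is highest in Pair IMC and lowest in EtOH IMC, and the last point of Pair vehicle (library 16) lies far below the other 3 in Oat.

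The first question was whether IMC changed these genes in the absence of ethanol. With IMC in pair-fed mice Oat fell by 45.9%, Otc fell by 26.1% and Nags fell by 18.5%, and no gene was called higher, so that 3 of 10 passed an adjusted p of 0.05 where 9.48% of all tested genes did. The fitted log2 fold change was below 0 in 9 of the 10 genes, with a median of -0.16 beside -0.00092 over all genes. The groups did not overlap in 3 genes, Otc, Nags and Glul, where 14.3% of all tested genes had groups that did not overlap. Some markers of other cell types were lower in the same comparison. The summed level of 4 intestine markers, of which Cdx2 was at 0 in every library, was 1270 to 1412 in Pair vehicle and 734 to 937 in Pair IMC. That of 4 pancreas markers, with Cpa1 at 0 in every library, was 125 to 157 and 72.1 to 88.5, and both tested genes of the list, Cela1 and Ctrb1, were called lower. That of 5 bile duct markers was 708 to 1209 and 611 to 694. The part of these markers in the results was not tested.

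Otc (ENSMUSG00000031173) lies on the plus strand at chrX:10252305-10321024 in GRCm38. It stood at 6646, 6013, 6296 and 5478 rescaled reads in the 4 Pair vehicle livers. In Pair IMC it stood at 4587, 3964, 4276 and 5299.8. Every Pair IMC liver was below every Pair vehicle liver, although library 8 came close to library 16. The means were 6108 ± 493 and 4532 ± 572 (SD, n = 4), a log2 fold change of -0.44 ± 0.11 (SE, adjusted p = 0.0183, exact permutation p = 0.0286, the smallest that 4 against 4 mice allow). The adjusted p was above 0.05 without library 4 (0.0705), 6 (0.060) or 10 (0.0511).

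Nags (ENSMUSG00000048217, chr11:102145513-102149477, plus strand), the enzyme of the activator, stood at 724, 793, 756 and 753 in Pair vehicle and at 561, 630.4, 590.5 and 688 in Pair IMC. The groups did not overlap, and the Pair vehicle livers were close together. The log2 fold change was -0.30 ± 0.09 (SE, adjusted p = 0.049997), which lay at the threshold and stayed past it in 13 of 29 alternatives. With 1 library left out it was kept without library 1, 8, 9, 11 or 15 and lost without any of the other 11, with adjusted p-values from 0.0256 to 0.130. Of the 11, libraries 3, 5, 7 and 13 are in neither group, and the log2 fold change was unchanged without them. Of the exon length of Nags, 15.6% overlaps an antisense gene, Gm11586, and whether the reads were counted by strand is not given in the sources used here, so reads of the 2 cannot be told apart over that stretch.

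Oat (ENSMUSG00000030934, chr7:132557478-132576398, minus strand), the mitochondrial ornithine aminotransferase, stood at 16822, 15729.5, 14409 and 6205 in Pair vehicle and at 6338, 6029, 6226 and 8513 in Pair IMC. Of the Pair vehicle livers 3 stood far above Pair IMC and library 16 lay among the Pair IMC livers, so the groups overlapped. The log2 fold change was -0.89 ± 0.24 (SE, adjusted p = 0.0267, exact permutation p = 0.114). It was -1.33 (adjusted p = 0.000108) without libraries 8 and 16, a setting chosen after seeing the data, and the adjusted p was between 0.0587 and 0.0803 without any 1 of libraries 2, 4, 6, 10, 12 and 14.

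Glul, glutamine synthetase, stood at 14009.9, 14498, 13766 and 14084 in Pair vehicle and at 16656, 15861, 15700.5 and 16881 in Pair IMC. Every Pair IMC liver was higher, and the spread within each group was small. The log2 fold change was 0.21 ± 0.09 (SE, exact permutation p = 0.0286), but the adjusted p was 0.170 and it did not pass the test across all genes.

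The other genes of the mitochondrial and cytosolic steps did not pass in pair-fed mice, and 2 livers carried much of their spread. Cps1, which makes carbamoyl phosphate, stood at 71372, 68564, 65579 and 46718 in Pair vehicle and at 54252, 50727, 52218 and 77330.0 in Pair IMC. Ass1, which joins citrulline to aspartate, stood at 42059, 42305, 39483 and 25706 and at 27435, 27355, 28452 and 44845. In both genes library 16 was the lowest and library 8 the highest of all 8 pair-fed livers. Gls2, the liver glutaminase, stood at 5244, 5221, 5014 and 3505 and at 3208, 4199, 4044 and 5528. Here too library 8 was the highest of the 8, and library 16 the lowest but one. The log2 fold changes were -0.11 ± 0.17 for Cps1 (adjusted p = 0.736), -0.23 ± 0.20 for Ass1 (0.504) and -0.17 ± 0.18 for Gls2 (0.589). Asl, which splits argininosuccinate into arginine and fumarate, Arg1, which splits arginine into urea and ornithine, and Slc25a15, which carries ornithine into and citrulline out of mitochondria, had log2 fold changes of -0.16, -0.09 and -0.08, with adjusted p-values of 0.519, 0.737 and 0.682.

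Library 8 was the highest of the 4 Pair IMC libraries in all 10 genes, with a median of 128% of the mean of the other 3, and was the highest in 29.4% of all tested genes, where its median was 99.6%. Library 16 was the lowest of Pair vehicle in 5 of the 10 genes (28.9% of all tested genes), at 39.6% of the mean of the other 3 in Oat, 62.3% in Ass1, 67.9% in Gls2, 68.2% in Cps1 and 86.7% in Otc. In Alb, library 16 (13% of reads) stood above the other Pair vehicle libraries and the Pair IMC libraries (11.7% to 12%). Without these 2 libraries 4 of the 10 genes were lower with IMC in pair-fed mice, where 6.24% of all tested genes were lower and 11.4% were called, namely Otc (-0.56, adjusted p = 0.00511), Oat, Nags (-0.35, 0.0402) and Ass1 (-0.57, 0.0365), so the call for Ass1 turned on them. The 2 libraries were chosen after seeing these values. Leaving out the highest Pair IMC liver lowers the Pair IMC mean of every one of the 10 genes, so the direction of this shift was fixed by that choice.

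**Figure D2:**
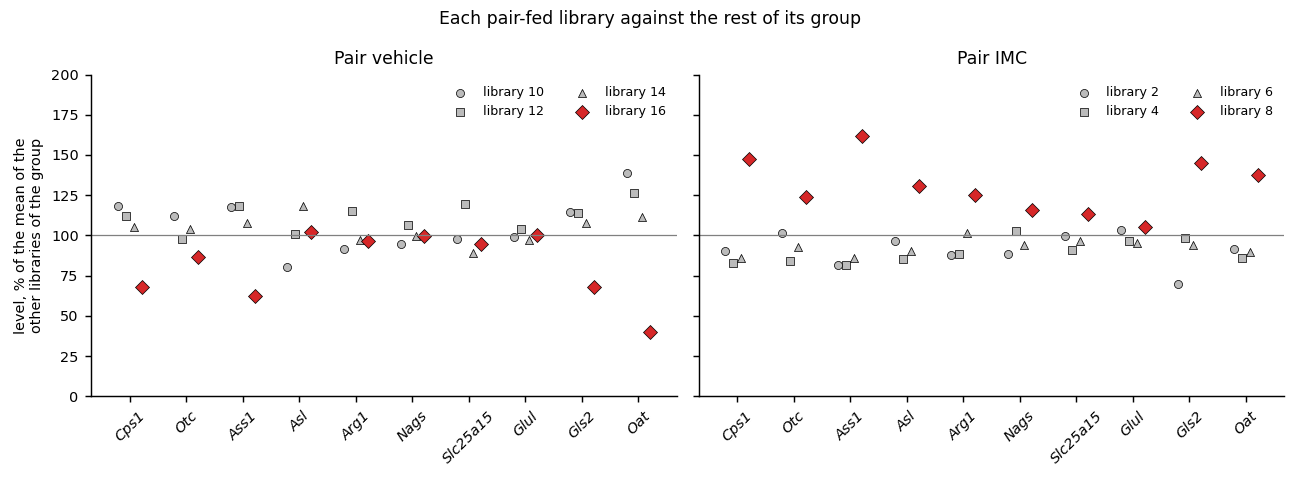
Level of each gene in each pair-fed library as a percent of the mean of the other 3 libraries of its group (linear axis from 0, line at 100%), with library 16 of Pair vehicle and library 8 of Pair IMC in red. Library 8 lies above 100% in all 10 genes, from 105% in Glul to 162% in Ass1, and library 16 falls to 39.6% in Oat but stays at 99.9% in Glul.

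The second comparison asked the same of IMC under ethanol. With IMC in ethanol-fed mice Oat fell by 55.5% and Otc fell by 32.2%, and these were the 2 of 10 genes past the threshold, where 21.5% of all tested genes passed. The median log2 fold change of the 10 genes was -0.18 beside -0.0016 over all genes, and 7 of the 10 were below 0. The groups did not overlap in Cps1, Otc and Oat, 3 of the 10, where 25.3% of all tested genes did not overlap. The summed level of 5 stellate cell and fibroblast markers was 3941 to 4622 in EtOH vehicle and 2563 to 3461 in EtOH IMC, and that of 4 lymphocyte markers was 167 to 224 and 89.0 to 131. Their part in the results was not tested.

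Oat stood at 11413, 15027, 15792 and 17628 in EtOH vehicle. In EtOH IMC it stood at 7211, 7661, 5749 and 5877. The lowest liver without IMC was far above the highest with it, and the log2 fold change was -1.17 ± 0.24 (SE, adjusted p = 0.00257, exact permutation p = 0.0286). Otc stood at 7462, 8565, 6287 and 8319 in EtOH vehicle and at 4970.5, 4889.5, 5207 and 5571 in EtOH IMC. The 4 livers with IMC were close together, and those without spread widely above them, with means of 5159 ± 306 and 7658 ± 1029 (SD, n = 4). The log2 fold change of Otc was -0.56 ± 0.11 (SE, adjusted p = 0.00167, exact permutation p = 0.0286). Both calls stayed past the threshold in all 29 alternatives, where the log2 fold change ranged from -0.65 to -0.38 for Otc and from -1.29 to -1.01 for Oat.

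Cps1 stood at 72966, 85296, 73768 and 83825 in EtOH vehicle and at 69932, 57127, 66204 and 56838 in EtOH IMC. The groups did not overlap (exact permutation p = 0.0286), but the log2 fold change of -0.34 ± 0.17 had an adjusted p of 0.168. Ass1, at 34477, 41434, 29662 and 45578 and 33723, 23447, 28702 and 29778, overlapped, with a log2 fold change of -0.38 ± 0.20 (SE, adjusted p = 0.183). The later steps of the cycle had values on the other side of 0, with log2 fold changes of 0.13 ± 0.14 for Asl (adjusted p = 0.548) and 0.23 ± 0.14 for Arg1 (0.238). Nags, Slc25a15 and Gls2 had log2 fold changes of 0.05, -0.15 and -0.07, with adjusted p-values of 0.737, 0.308 and 0.821. Glul stood at 10572, 13128, 12984 and 13760.0 in EtOH vehicle and at 10503, 11798, 11163 and 10027 in EtOH IMC, where the 2 groups overlapped through library 1, and its log2 fold change was -0.21 ± 0.09 (SE, adjusted p = 0.117). The call for Glul was made without library 1 (adjusted p = 0.0374) and by DESeq2 (0.0349), but not by DESeq2 without library 15 (0.124).

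Averaged over both diets, Otc fell by 29.2% with IMC (log2 fold change -0.50 ± 0.08, SE, adjusted p = 0.000166) and Oat fell by 51.0% (-1.03 ± 0.17, adjusted p = 0.000296). These were 2 of 10 genes, against 28.1% of all tested genes, and both stayed past the threshold in all 28 alternatives. Without libraries 8 and 16, a setting chosen after seeing the data, the count was 4, where 29.3% of all tested genes were called. Ass1 (-0.48, adjusted p = 0.00408) and Cps1 (-0.36, adjusted p = 0.0121) were lower as well. Ass1 was also called without library 8 alone (adjusted p = 0.0296) or library 16 alone (0.0325). In both genes library 8 was the highest of Pair IMC and library 16 the lowest of Pair vehicle. Leaving them out could only lower the fitted values, so the direction of these added calls was fixed by that choice.

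The effect of IMC was then compared between the diets. By limma, 0 of the 10 genes had an IMC effect that differed between pair-fed and ethanol-fed mice, where 1.11% of all tested genes did. At an unadjusted p under 0.05 there were 2 of the 10, Glul and Nags, beside 1913 of all 12537 tested genes. For Glul the difference was -0.42 ± 0.13 on the log2 scale (SE, adjusted p = 0.132), the fitted change being 0.21 in pair-fed and -0.21 in ethanol-fed mice. For Nags it was 0.35 ± 0.13 (SE, adjusted p = 0.205). DESeq2 on whole reads called 1 of the 10, where it called 2.82% of all genes with an adjusted p, namely Glul (adjusted p = 0.0146, and 0.0470 without library 15), and edgeR called 0. For Otc and Oat the differences of -0.13 ± 0.15 and -0.28 ± 0.34 (SE) were smaller than their errors, so that a difference of either sign was within their error.

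**Figure D3:**
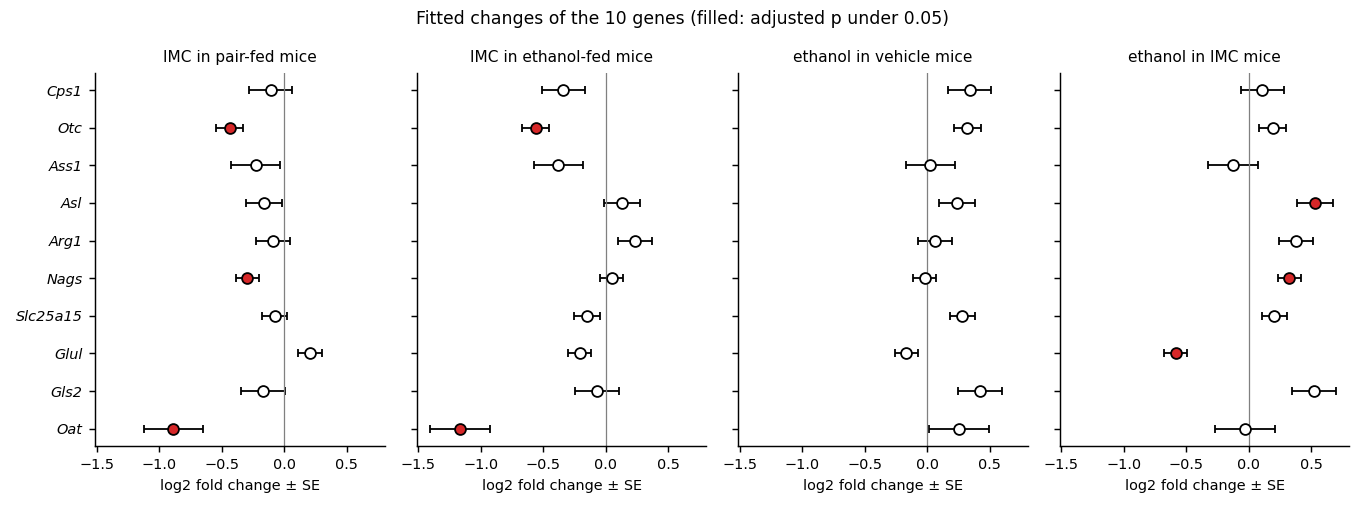
Fitted log2 fold change (points) with its SE (bars) of the 10 genes in 4 comparisons of 2 groups, all on the same axis, with filled points where the adjusted p was under 0.05. Otc and Oat are filled on the left of 0 in both comparisons of IMC with vehicle, no gene is filled for ethanol in vehicle mice, and Asl and Nags are filled above 0 and Glul below 0 for ethanol in IMC mice. The comparisons share groups, so the panels are not independent of each other.

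The effect of ethanol feeding was read in mice without IMC and in mice with it. These comparisons use the same 4 groups as those above. In mice without IMC, ethanol changed none of the 10 genes past the threshold in limma, where 11.9% of all tested genes passed. At an unadjusted p under 0.05 there were 3 of the 10 (Otc, Slc25a15 and Gls2), beside 3489 of all 12537 tested genes. The fitted values were above 0 in 8 of the 10, with a median of 0.25 beside -0.0072 over all genes. The groups did not overlap in Cps1, Slc25a15 and Glul, 3 of the 10, where 19% of all tested genes did not overlap. The summed level of the stellate cell and fibroblast markers was 2708 to 3711 in Pair vehicle, all below EtOH vehicle, and those of the intestine (1108 to 1242) and pancreas markers (93.3 to 124) in EtOH vehicle were all below Pair vehicle. Otc was 6108 ± 493 in Pair vehicle and 7658 ± 1029 in EtOH vehicle (SD, n = 4), a log2 fold change of 0.32 ± 0.11 (SE, adjusted p = 0.0612). It was past the threshold in 6 of 29 alternatives, among them DESeq2 (0.0261), edgeR with upper-quartile scaling (0.0461) and the fits without library 5 (0.0273) or library 8 (0.0458). Library 8 is in neither group, and without it the log2 fold change of Otc was unchanged. The deposited values before rescaling, which carry a shift between diets given below, were also among the 6 (adjusted p = 0.0027 in limma). Slc25a15, the ornithine carrier, stood at 4903, 5681, 4580.1 and 4799 in Pair vehicle. In EtOH vehicle it stood at 6174, 6241, 6045 and 5724. Every ethanol-fed liver was higher, the lowest of them (library 7) only just above library 12, and the log2 fold change was 0.28 ± 0.10 (SE, adjusted p = 0.0797, and 0.0392 and 0.0466 without library 9 or 12). Library 9 is in neither group, and without it the log2 fold change of Slc25a15 was unchanged. Gls2 had 0.42 ± 0.18 (adjusted p = 0.128) and Cps1 0.34 ± 0.17 (adjusted p = 0.205), while Glul had -0.17 ± 0.09 (adjusted p = 0.254).

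These counts rest on the scale shared by the diets. The deposited values of all genes were shifted upward in ethanol-fed mice by a median of 0.19 on the log2 scale, and the shift was -0.0017 after rescaling. On the deposited values as they stand, 5 of the 10 genes were called higher with ethanol in mice without IMC (Cps1, Otc, Asl, Slc25a15 and Gls2) and 0 lower, each by an amount that includes the shift. On that scale 22.3% of all tested genes were called higher and 1.6% lower.

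In mice given IMC, ethanol raised Asl by 44.6% and Nags by 25.2% and Glul fell by 33.3%, 3 of 10 genes where 16.4% of all tested genes passed. The median log2 fold change of the 10 was 0.20 beside 0.0034 over all genes. The groups did not overlap in Asl and Glul, 2 of the 10, where 19.2% of all tested genes did not. On the deposited values the split was 6 higher and 1 lower in place of 2 and 1, where 25.3% of all tested genes were called higher and 3.52% lower. Albumin took 11.7% to 12% of reads in Pair IMC and 6.74% to 9.12% in EtOH IMC, and the summed level of the lymphocyte markers was 150 to 206 in Pair IMC, above every EtOH IMC liver.

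Glul (ENSMUSG00000026473, chr1:153899944-153909723, plus strand), at 16656, 15861, 15700.5 and 16881 in Pair IMC, stood at 10503, 11798, 11163 and 10027 in EtOH IMC. The lowest pair-fed liver was well above the highest ethanol-fed one, and the log2 fold change was -0.58 ± 0.09 (SE, adjusted p = 0.000598, exact permutation p = 0.0286). The call held in all 29 alternatives, from -0.62 to -0.39. Up to 3.49% of the exon length of Glul overlaps another annotated gene. Asl (ENSMUSG00000025533, chr5:130011258-130029247, minus strand) stood at 5770.1, 5246, 5499 and 7211 in Pair IMC and at 8289, 9116, 8288 and 8388 in EtOH IMC. The EtOH IMC livers were close together and all above library 8, the highest of Pair IMC, with a log2 fold change of 0.53 ± 0.14 (SE, adjusted p = 0.0178, exact permutation p = 0.0286). Without library 6 the adjusted p was 0.0522. Nags, at 849, 675, 717 and 859 in EtOH IMC, overlapped Pair IMC through library 8, and its log2 fold change was 0.32 ± 0.09 (SE, adjusted p = 0.0225). That call was lost without any 1 of libraries 2, 6, 9 and 15, with adjusted p-values from 0.0620 to 0.0750, with only the libraries compared (0.0645), and in edgeR (0.0583) and DESeq2 (0.0536) without library 15.

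Gls2 (log2 fold change 0.52 ± 0.18, SE, adjusted p = 0.0512) and Arg1 (0.38 ± 0.14, adjusted p = 0.0651) missed the threshold narrowly. In both genes the groups overlapped (exact permutation p = 0.0571). Gls2 passed in 12 of 29 alternatives and Arg1 in 9 of 29, including DESeq2 and edgeR on whole reads for both. The deposited values, which carry the shift between diets, were among these alternatives. So was the fit without libraries 8 and 16 (adjusted p = 0.0115 for Gls2 and 0.0458 for Arg1), chosen after seeing the data. Library 8 was the highest of Pair IMC in both genes, so leaving it out could only raise these fitted values. With library 15 left out of the count tests, Gls2 passed in neither (0.102 in edgeR and 0.0791 in DESeq2), and Arg1 passed in DESeq2 (0.0442) but not in edgeR (0.0733). Arg1 stood at 15355, 15434, 17113 and 19936 in Pair IMC and at 25969, 18973, 22301 and 21123 in EtOH IMC, where library 11 alone lay below library 8. Otc, Slc25a15, Cps1, Ass1 and Oat had log2 fold changes of 0.19, 0.21, 0.11, -0.13 and -0.03, with adjusted p-values from 0.181 to 0.949.

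Ratios of reads within 1 library do not depend on the scaling of libraries and are given as a description. Oat reads per Glul read were 0.943 ± 0.341 in Pair vehicle, 0.415 ± 0.0598 in Pair IMC, 1.18 ± 0.0874 in EtOH vehicle and 0.609 ± 0.0753 in EtOH IMC (SD, n = 4). Both genes are enriched around the central vein, and on each diet the mean ratio was lower with IMC, with library 16 (0.441) the only vehicle liver inside the range of the IMC livers. Glul reads per Gls2 read, the enzyme that forms glutamine against the enzyme that breaks it down, were 3.05 ± 0.645, 3.98 ± 0.89, 2.04 ± 0.519 and 1.84 ± 0.417 in the same order. This ratio was lower in both ethanol-fed groups than in the pair-fed groups on average, and library 5 of EtOH vehicle (2.81) overlapped the pair-fed range. Ass1 reads per Asl read, 2 neighbouring steps, were 5.74 ± 1.56, 5.34 ± 0.621, 4.81 ± 0.37 and 3.41 ± 0.621, with the lowest mean in EtOH IMC.

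**Figure D4:**
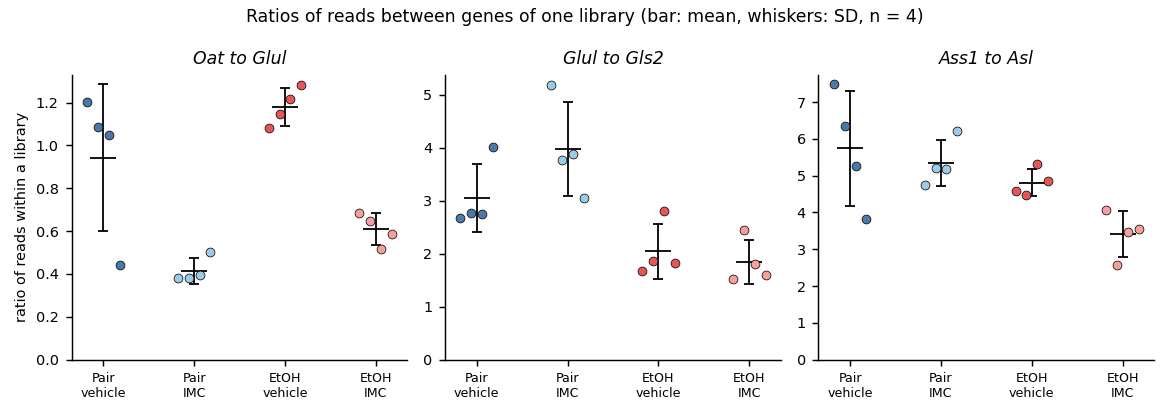
Ratios of reads between genes of the same library, without unit, by group, with points for single livers, a bar for the mean and whiskers for the SD (n = 4, axes from 0). The ratio of Oat to Glul is lower with IMC on both diets except in library 16, that of Glul to Gls2 is lower on average with ethanol, and that of Ass1 to Asl is lowest in EtOH IMC.

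By pattern over the 16 livers, the tested genes closest to Otc were Uroc1, the urocanase of histidine breakdown, Agmat, the agmatinase, and Pecr, a peroxisomal enoyl reductase. Likeness was measured as the root mean square difference of centred log2 values, 0.102, 0.112 and 0.122, where the spread of Otc itself was 0.312. The 16 livers share 4 groups, so genes that differ between the same groups come out alike. Uroc1 had log2 fold changes for IMC of -0.31 in pair-fed and -0.55 in ethanol-fed mice, Agmat of -0.47 and -0.58, and Pecr of -0.60 and -0.35, beside -0.44 and -0.56 for Otc. Among the 10 genes themselves the 3 closest pairs, Asl and Arg1, Arg1 and Nags, and Nags and Slc25a15, were equal at 0.173, and Oat (0.416 to Otc) and Glul (0.352 to Ass1) were the farthest from their nearest member. The genes of the closest pairs had spreads of 0.282 (Asl), 0.219 (Arg1), 0.169 (Nags) and 0.182 (Slc25a15). Nags and Slc25a15 thus differed about as much as each varied, and this rank reflects small spreads rather than a shared pattern.

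Wider lists of genes around the pathway were counted in the same fit. Over all tested genes, 10.4% were higher and 11.1% lower with IMC in ethanol-fed mice, and 4.32% and 5.17% with IMC in pair-fed mice. With ethanol 6.33% were higher and 5.54% lower in vehicle mice, and 7.86% and 8.57% in IMC mice. The counts of each list stand beside these shares and were not tested against them. The lists were chosen with earlier results of these data known, so the shares are no independent baseline for them. Of 13 tested partners of the urea cycle, enzymes and carriers that supply bicarbonate, aspartate or activation, 6 were lower and 0 higher with IMC in ethanol-fed mice (median -0.37, all genes -0.0016, 11.1% of all genes lower), and 2 were higher and 2 lower in pair-fed mice. Car5a, the mitochondrial carbonic anhydrase that supplies bicarbonate to Cps1, was 849 ± 90.9 in EtOH vehicle and 510 ± 62.2 in EtOH IMC (SD, n = 4), a log2 fold change of -0.74 ± 0.11 (SE, adjusted p = 0.000202). Slc25a13, the aspartate and glutamate carrier, changed by -0.45 ± 0.08 (adjusted p = 0.000597) and Sirt5, which deacylates Cps1, by -0.79 ± 0.14 (adjusted p = 0.00117). With ethanol in vehicle mice 2 of the 13 were higher and 0 lower, Car5a by 0.43 ± 0.11 (adjusted p = 0.0177) and Car5b, another mitochondrial carbonic anhydrase, by 0.78 ± 0.13 (adjusted p = 0.00185). With ethanol in IMC mice 1 was higher and 3 lower.

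Of 18 genes of ornithine, proline and polyamine metabolism, 5 were lower and 0 higher with IMC in pair-fed mice (median -0.23, 5.17% of all genes lower), and 7 were lower and 1 higher in ethanol-fed mice (median -0.17, 11.1% of all genes lower). The lower genes in ethanol-fed mice included Aldh4a1, the enzyme after Oat on the way to glutamate (-0.75 ± 0.11, SE, adjusted p = 0.000226), Agmat (-0.58 ± 0.08, adjusted p = 0.000160) and Gamt, which makes creatine (-0.95 ± 0.16, adjusted p = 0.000639). With ethanol in vehicle mice 1 was higher, Odc1, the first enzyme of polyamine synthesis (0.78 ± 0.10, adjusted p = 0.000336), and 1 lower, Sat1, which acetylates polyamines (-0.63 ± 0.11, adjusted p = 0.00238). With ethanol in IMC mice 2 were higher and 2 lower.

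Of 20 genes of amino acid breakdown, 10 were lower and 1 higher with IMC in ethanol-fed mice (median -0.34, 11.1% of all genes lower), and 1 lower and 0 higher in pair-fed mice (median -0.24). Hpd, of tyrosine breakdown, was 28006 ± 4049 in EtOH vehicle and 15929 ± 1117 in EtOH IMC (SD, n = 4), with -0.81 ± 0.14 (SE, adjusted p = 0.000591). Gstz1, later in the same path, changed by -0.45 ± 0.09 (adjusted p = 0.00273), and Amt, of the glycine cleavage system, by -0.81 ± 0.12 (adjusted p = 0.000158). With ethanol in vehicle mice 5 were higher and 0 lower (median 0.26), among them Gldc (0.91 ± 0.13, adjusted p = 0.000534) and Amt (0.72 ± 0.12, adjusted p = 0.00126), both of glycine cleavage, and Ftcd, the last enzyme of histidine breakdown (0.45 ± 0.10, adjusted p = 0.0107). With ethanol in IMC mice 5 were higher and 1 lower.

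Of 11 tested genes of glutamine, ammonium and urea transport, 1 was higher and 1 lower with IMC in ethanol-fed mice. Slc38a2, a neutral amino acid transporter that takes up glutamine, rose by 0.88 ± 0.19 (SE, adjusted p = 0.00351), and Slc38a3, the main glutamine transporter of hepatocytes, fell, with a log2 fold change of -0.48 ± 0.17 (adjusted p = 0.0449). With IMC in pair-fed mice 0 were higher and 1 lower. With ethanol in vehicle mice 2 were higher and 0 lower, Rhbg, the ammonium channel of pericentral hepatocytes (1.19 ± 0.24, adjusted p = 0.00438), and Slc1a4 (1.25 ± 0.25, adjusted p = 0.00458), and with ethanol in IMC mice 2 were higher and 1 lower.

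Of 13 regulators, 1 was higher and 2 were lower with IMC in ethanol-fed mice, namely Hnf4a (0.62 ± 0.13, SE, adjusted p = 0.00298), Ppara (-0.50 ± 0.14, adjusted p = 0.0199) and the glucocorticoid receptor gene Nr3c1 (-0.30 ± 0.10, adjusted p = 0.0375). In pair-fed mice IMC gave 1 higher and 1 lower. Ethanol gave 0 higher and 1 lower in vehicle mice, Ppara (-0.48 ± 0.14, adjusted p = 0.0378), and the same counts in IMC mice.

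**Figure D5:**
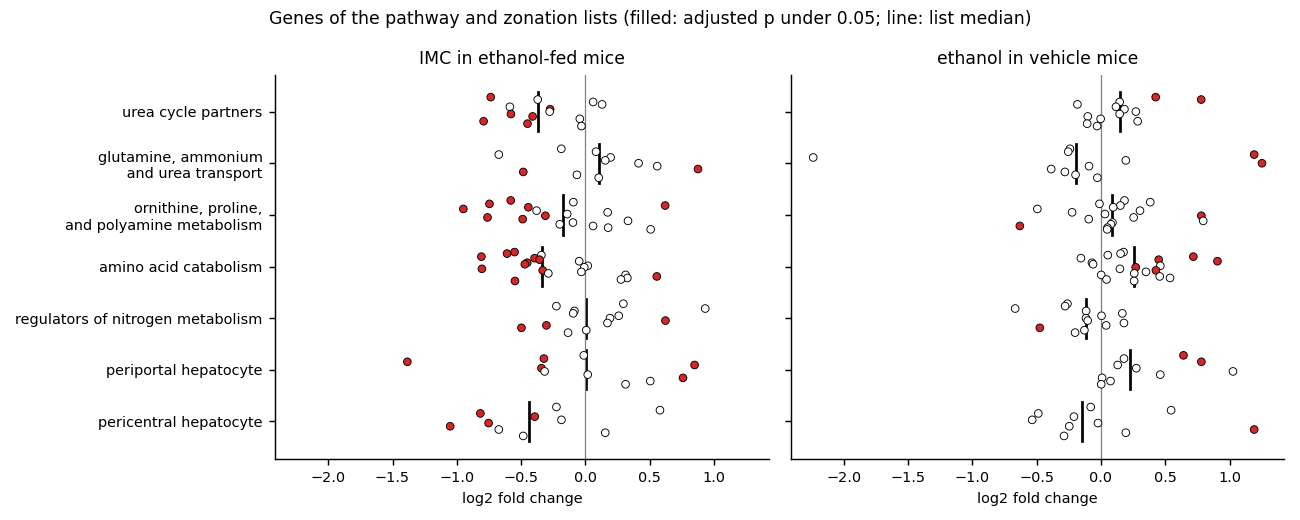
Fitted log2 fold change of each tested gene of 5 pathway lists and 2 zonation lists, for IMC in ethanol-fed mice on the left and ethanol in vehicle mice on the right, filled where the adjusted p was under 0.05, with a line at the list median. Partners of the urea cycle hold 6 filled points of 13 below 0 on the left and amino acid breakdown 10 of 20, beside 11.1% of all tested genes, and amino acid breakdown holds 5 of 20 above 0 on the right, beside 6.33%. The lists were chosen with earlier results of these data known.

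Because the 10 genes belong to different zones of the lobule, markers of each zone were read beside them. Of 10 periportal markers, 2 were higher and 3 lower with IMC in ethanol-fed mice (median 0.0026), with Cyp2f2 at -1.38 ± 0.12 (SE, adjusted p = 2.52e-06), Hsd17b13 at 0.76 ± 0.10 (adjusted p = 8.44e-05) and Etnppl at 0.85 ± 0.19 (adjusted p = 0.00531), so that the list split. Of 10 pericentral markers, 0 were higher and 4 lower (median -0.44), among them Cyp2e1 (-0.82 ± 0.20, adjusted p = 0.00893), Rgn (-1.05 ± 0.20, adjusted p = 0.00141) and Lhpp (-0.75 ± 0.13, adjusted p = 0.000984). In pair-fed mice IMC gave 2 higher and 0 lower periportal and 0 higher and 1 lower pericentral markers. With ethanol in vehicle mice 2 periportal markers were higher and 0 lower, Cyp2f2 (0.78 ± 0.12, adjusted p = 0.00112) and Cdh1 (0.64 ± 0.20, adjusted p = 0.0455), and 1 pericentral marker, Rhbg, was higher. In IMC mice, where ethanol lowered Glul, 2 pericentral markers were higher and 3 lower (median -0.39), and 2 periportal markers were higher and 1 lower. The part of these markers in the values of Oat and Glul was not tested.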

How the data were processed

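Liver RNA from 16 mice was sequenced on a TruSeq directional library. By the study's methods and the submitters' processing notes, reads were trimmed with Trim Galore, checked with FastQC, aligned to mm10 with STAR and loaded into edgeR; the counting tool is not given in the sources used here. The deposited signal values are read counts scaled library by library, and 100% of them came out as whole reads within a tolerance of 0.01. In library 15 a read is worth close to 1, so count tests were repeated with that library left out. Of 24082 Ensembl IDs, 430 were listed under several symbols with the same values and were used once. The methods name upper-quantile scaling and single-end reads, and the labels paired-end reads. A median ratio over all 16 libraries gave factors of 0.934 to 0.939 in pair-fed and 1.066 to 1.072 in ethanol-fed mice, so the deposited values lay close to a median-ratio scale within each diet and on separate scales between diets. How the deposited scale was made is not given in the sources used here, and the values were rescaled by these factors.

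The 12537 genes that reached 10 in 4 or more libraries were tested with limma 3.58.1 (R 4.3.3) on log2(value + 1). The fit had 4 group means, 12 residual degrees of freedom before moderation and a mean-variance trend, tests were two-sided, and p-values were adjusted by Benjamini-Hochberg over all these genes (threshold 0.05). Fold changes are on the log2(value + 1) scale. Two-sided exact permutation tests ran over the 70 divisions of 8 mice. Whether the numbered libraries come from separate cages or days is not stated, so p-values measure the spread between these mice. Motifs and exon overlaps were read from RefSeq and GENCODE vM21 (GRCm38) annotation, and depth limits cover counting error only.

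The genes named are the 10 members in every comparison, in each list up to 3 genes with the smallest adjusted p under 0.05 for IMC in ethanol-fed mice and for ethanol in vehicle mice, and the 3 genes most like the member with the smallest p. Of 149 listed symbols 148 were found. Markers of other cell types were read as summed levels. The members and lists were chosen with earlier results of these data known. Alternatives were other pseudocounts (0.1 and 5), filters, scalings, count tests on whole reads in DESeq2 1.42.0 and edgeR 4.0.16, each library left out in turn and, chosen after seeing the data, libraries 8 and 16 left out together. Tests were checked on simulated data.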

Additional observations from a re-analysis of the deposited data

Results flagged for a closer look

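In 6 of the 40 sets of 4 livers formed by the 10 genes and 4 groups, 1 liver lay apart from the other 3, with a gap to its nearest neighbour, as a share of the whole range, above Dixon's 95% critical value for 4 samples. Chance alone gives about 1 in 20. Library 8 of Pair IMC was apart as the highest in Cps1 (0.868), Ass1 (0.937) and Oat (0.875). Library 16 of Pair vehicle was apart as the lowest in Ass1 (0.830, at the limit) and Gls2 (0.868). In EtOH IMC, library 11 was apart as the highest in Asl (0.879), where it stood at 9116 rescaled reads and the other 3 between 8288 and 8388. The same livers recur in these sets, so the 6 are not independent of each other. No explanation of these livers was tested.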

How the results depend on the processing

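No paired analysis was possible because the groups share no replicate numbers. Counts of the 10 genes called changed as follows. For IMC in pair-fed mice (3 genes) the count was 1 with only the libraries compared and 0 to 3 when 1 library was left out, with 0 without library 4, 6 or 10 and 1 without library 2, 12 or 14. For IMC averaged over both diets (2) it was 4 without libraries 8 and 16. For the difference between diets (0) it was 1 in DESeq2, with and without library 15. For ethanol in vehicle mice (0) it was 5 on deposited values with no rescaling, 1 with upper-quartile scaling in edgeR, 1 in DESeq2 with and without library 15, and 0 to 1 with 1 library left out, being 1 without library 5, 8, 9 or 12. For ethanol in IMC mice (3) it was 7 on deposited values, 5 with quantile normalization, edgeR with TMM or upper-quartile scaling, DESeq2, or without libraries 8 and 16, 2 in edgeR and 3 in DESeq2 without library 15, and 1 to 5 with 1 library left out, being 1 without library 6 and 5 without library 5, 8 or 11. The cause of these changes was not tested, except that deposited values carry the shift between diets. For IMC in ethanol-fed mice (2) no alternative moved the count by over 1.5 times.

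Signs turned only in values that did not pass the threshold, all as log2 fold changes. On deposited values, ethanol in vehicle mice gave 0.17 for Nags and 0.023 for Glul, and ethanol in IMC mice 0.066 for Ass1 and 0.16 for Oat. Quantile normalization gave 0.095 for Glul and 0.031 for Asl (IMC averaged), 0.10 for Gls2 (IMC in ethanol-fed mice), 0.028 for Oat (ethanol in IMC mice), and 0.066 for Otc and 0.066 for Slc25a15 (difference between diets). Upper-quartile scaling gave 0.0019 for Oat (ethanol in IMC mice) and 0.0047 for Nags (ethanol in vehicle mice). Without library 15, edgeR and DESeq2 gave 0.033 and 0.023 for Oat (ethanol in IMC mice) and 0.016 and 0.014 for Glul (IMC averaged). Without libraries 8 and 16, the difference between diets was 0.047 for Cps1, 0.0034 for Otc, 0.19 for Ass1 and 0.16 for Oat, ethanol in vehicle mice gave -0.15 for Ass1 and -0.080 for Oat, and ethanol in IMC mice 0.048 for Ass1 and 0.085 for Oat.

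With 1 library left out, these ranged for ethanol in vehicle mice from -0.032 to 0.17 (Arg1), -0.15 to 0.13 (Ass1), -0.045 to 0.035 (Nags) and -0.080 to 0.40 (Oat); for ethanol in IMC mice from -0.20 to 0.048 (Ass1) and -0.10 to 0.085 (Oat); for IMC averaged from -0.094 to 0.030 (Asl) and -0.042 to 0.021 (Glul); for IMC in ethanol-fed mice from -0.027 to 0.22 (Asl), -0.21 to 0.036 (Gls2) and -0.0070 to 0.11 (Nags); and for the difference between diets from -0.26 to 0.023 (Ass1), -0.045 to 0.24 (Gls2) and -0.43 to 0.050 (Oat). Over the single values of the 10 genes in 6 comparisons, 1583 of 1780 fits (60 of them the reported ones) kept the side of the threshold and the sign, 45 passed it where the reported fit did not, 34 lost it and 58 turned sign. With 4 mice in a group, an exact permutation test cannot give less than 0.0286. The largest SD within a group was 36.3% of its mean in Oat, 26.7% in Ass1, 22.6% in Gls2 and 21.4% in Cps1. Small changes in such genes may have been missed, and the smallest change that could be detected was not computed.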

Other observations

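Some genes of the wider lists, picked after their values were seen, moved in other ways than Otc and Oat. Car5b and Cyp2f2 were also named above by the naming rule, and G6pc and Hal lie outside it. Car5b, a mitochondrial carbonic anhydrase, was the only partner of the urea cycle with an IMC effect that differed between diets by limma (-1.18 ± 0.19 on the log2 scale, SE, adjusted p = 0.00651): its level was 40.6 ± 3.98 in Pair vehicle, 72.4 ± 9.86 in Pair IMC, 70.5 ± 7.28 in EtOH vehicle and 54.1 ± 2.15 in EtOH IMC (SD, n = 4). Cyp2f2, a periportal cytochrome, was the only zonation marker to do so (-1.49 ± 0.17, adjusted p = 0.000436), at 5358 ± 188 in Pair vehicle, 5805 ± 647 in Pair IMC, 9286 ± 1456 in EtOH vehicle and 3561 ± 621 in EtOH IMC. G6pc, the glucose-6-phosphatase of glucose release, was higher with IMC in pair-fed mice (1.46 ± 0.38, adjusted p = 0.0222), and Hal, the first enzyme of histidine breakdown, was higher with ethanol in IMC mice (0.76 ± 0.16, adjusted p = 0.00421). The difference between diets is also the difference between low and high library numbers and cannot be told apart from it.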
